A study of Drosophila melanogaster with 5 samples.

Results

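The 10 genes described here form the core of the apoptotic machinery of Drosophila melanogaster together with p53 and the death ligand Eiger. They were taken by symbol (rpr, hid, grim, skl, Dronc, Drice, Diap1, Dark, p53 and egr), and all 10 were found among the 17494 genes of the count table. RNA was sequenced from dorsolongitudinal flight muscles dissected from pupae at 48 h after puparium formation (APF), with each library pooling the muscles of 6 to 8 pupae. The M1BP RNAi group (n = 2, labelled replicates 2 and 3) carried a UAS-M1BP RNAi transgene under Mef2-GAL4, and the WT group (n = 3, replicates 1 to 3) carried the same driver without the transgene. Mef2-GAL4 is active in muscle from the myoblast stage onwards, and the RNAi line was the weaker of those used in the study, so the group models a partial and long-lasting loss of M1BP, a transcription factor that binds a promoter element of housekeeping genes. Both groups were reared at 25 °C, and the sex of the pupae was not given in the sources used here. The study describes its replicates as separate RNA preparations, and whether they came from separate crosses was not given for these libraries, so p-values measure the spread between them.

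In flies, programmed cell death turns on the balance between caspases and an inhibitor that holds them in check. Diap1 is a ubiquitin ligase that binds and restrains the initiator caspase Dronc and the effector caspase Drice, Dark is the Apaf-1 homologue that assembles Dronc into the apoptosome, and Reaper (rpr), Hid, Grim and Sickle (skl) are small antagonists that bind Diap1 and release the caspases. After DNA damage p53 activates transcription of several of these antagonists, while Eiger (egr), the fly tumour necrosis factor, signals through the receptors Grindelwald and Wengen to the JNK pathway. In the pupa, pulses of the steroid hormone ecdysone induce rpr and hid in larval tissues that are removed, whereas the dorsolongitudinal flight muscles are built on a few larval muscles that escape this histolysis.

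The libraries held 46504821 and 57514444 counts in M1BP RNAi and 41676901 to 53556469 in WT. M1BP itself, the targeted gene, had 410 and 456 normalised counts in M1BP RNAi, against 666, 673 and 642 in WT. Normalised counts were obtained by dividing the raw counts by a size factor estimated for each library. For M1BP the log2 fold change was -0.61 (SE 0.136, DESeq2 adjusted p 1.04e-04), although without any single library its adjusted p lay between 0.0135 and 0.181. The 10 flight muscle markers examined summed to 1.80e+06 and 2.13e+06 normalised counts in M1BP RNAi, against 1.99e+06 to 2.78e+06 in WT, with none at 0 in any library. Of the 10, 4 lay below every WT library, against 21.9% of all genes tested. M1BP RNAi replicate 2 stood apart in 17 testis markers, which summed to 11788 in that library and 467 in M1BP RNAi replicate 3, against 225 to 422 in WT. Replicate 2 was not alone, since 14 of the 17 lay above every WT library in replicate 3 as well, by little in some. Over all genes tested, 27.1% lay above WT in both M1BP RNAi libraries. In the sum for replicate 3, janB went the other way (151, against 193 to 228 in WT). Markers of fat body, 8 genes, summed to 17284 and 16683 in M1BP RNAi, against 7798 to 15905 in WT. Of the 8 fat body markers, 3 lay above every WT library, against 27.1% of all genes tested. Those of haemocytes, 8 genes, summed to 9752 and 6757 against 4322 to 7650, with Pxn as the main contributor, 0 of the 8 genes above every WT library, 1 below (eater), and He, lz and Hml at 0 to 22.6 in each library. The 7 neuronal markers summed to 2128 and 2774 in M1BP RNAi, against 3066 to 3809 in WT. Of these, elav was the main contributor (1695 and 1792 in M1BP RNAi, against 1831 to 1848 in WT). The 6 tracheal markers summed to 57413 and 84291, against 89972 to 122356. In each of these 2 lists 3 markers lay below every WT library, against 21.9% of all genes tested, and 0 above. The male-specific lncRNA:roX1 had 9618 and 5900 normalised counts in M1BP RNAi, against 14.4, 4994 and 1062 in WT. The part of these cell types and of sex in the results that follow was not tested, except for the fit with lncRNA:roX1 as a covariate, and in bulk tissue fewer cells of a type and less RNA per cell cannot be told apart.

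None of the 10 genes was called. A call required at least a 1.5-fold difference with an adjusted p no greater than 0.001 in DESeq2, the rule of the study, which 6.75% of the 11282 genes tested met (3.78% higher and 2.98% lower in M1BP RNAi). The balance of directions turned with lncRNA:roX1 as a covariate (133 genes higher and 169 lower) and with a replicate block (119 and 196). It also turned without WT replicate 1 (250 and 260), 2 (235 and 256) or 3 (336 and 346), and without M1BP RNAi replicate 2. With TMM factors (442 and 323) and a filter of 10 counts in 2 libraries (447 and 354) more genes stayed higher. Of the 10 genes, 8 received an adjusted p, and 0 were called. At an unadjusted p under 0.05, 3 of them differed by DESeq2 (Dronc, Dark and Diap1) and 2 by edgeR, which also called 0, against 35.7% of all genes tested by DESeq2 and 31.1% by edgeR. By DESeq2 this number was 0 without M1BP RNAi replicate 2, 0 with the covariate and 1 without WT replicate 1. With an adjusted p of at most 0.05 and no fold minimum, 2 of the 8 genes passed, Dark higher and Dronc lower in M1BP RNAi, against a share of 24.4% over all genes tested. No member reached a fold change of 1.5 in either direction (0 of 10). The median log2 fold change of the 8 tested members was -0.09, against 0.02 over all genes tested. Normalised counts did not overlap between the groups for 3 of the 8 (Dark and Diap1 above WT, Dronc below it), whereas 48.9% of all genes tested did not overlap, 27.1% above and 21.9% below WT. Each of these shares lies near or under the share over all genes.

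**Figure D1:**
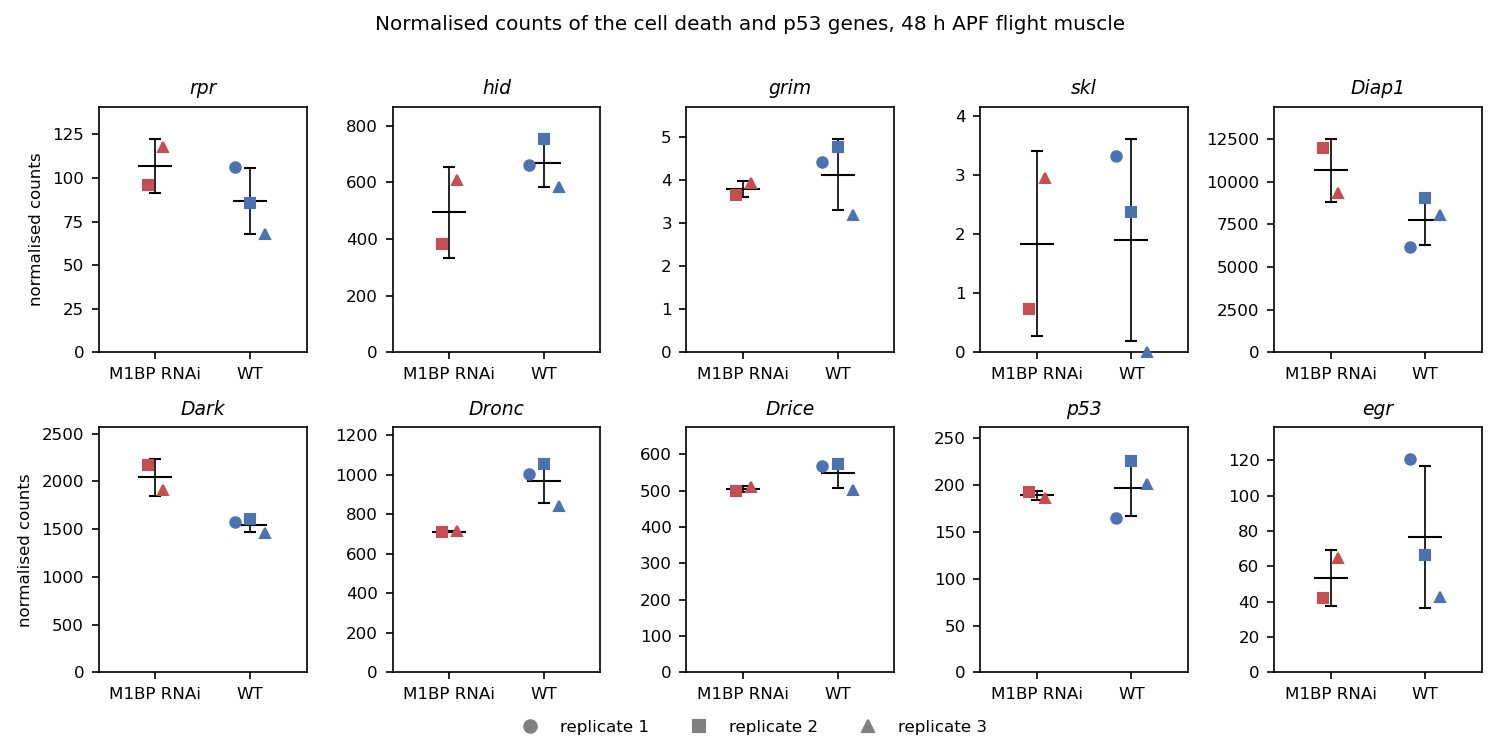
Normalised counts (y axis, each panel from 0) of the 10 genes in each library of M1BP RNAi (red, n = 2) and WT (blue, n = 3), with symbols for the replicate number and black bars for the mean ± SD. Dark and Diap1 lie above and Dronc below every WT library, while the other genes overlap between the groups.

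The antagonists of Diap1 were examined first. Their 4 genes lie on the minus strand of chromosome arm 3L (dm6), within 272 kb, at 18167745 to 18185641 for hid, 18302719 to 18304417 for grim, 18397535 to 18398435 for rpr and 18438561 to 18439942 for skl. Only rpr and hid were clearly detected at this stage. Reaper, which triggers degradation of Diap1, had 95.7 and 118 normalised counts in M1BP RNAi, against 106, 85.7 and 68.1 in WT. The groups overlapped, since WT replicate 1 exceeded M1BP RNAi replicate 2, and the log2 fold change was 0.30 (SE 0.372, DESeq2 adjusted p 0.605). The 95% interval of that change, -0.43 to 1.03, leaves room for more than a doubling on the upper side.

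The hid gene, which acts downstream of survival signalling through EGFR and MAPK, was the most counted antagonist. It had 381 and 608 normalised counts in M1BP RNAi, against 662, 754 and 585 in WT. M1BP RNAi replicate 2 was the lowest library and replicate 3 fell within the WT range. The log2 fold change was -0.43 (SE 0.283, DESeq2 adjusted p 0.266), with a 95% interval of -0.99 to 0.12. This value rested on M1BP RNAi replicate 2, being -0.12 (DESeq2 adjusted p 0.918) when that library was left out and -0.80 (adjusted p 0.0282) when replicate 3 was.

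The other antagonists were at the limit of detection. Raw counts of grim were 5 and 4 in M1BP RNAi, against 4, 4 and 3 in WT, and those of skl were 1 and 3 in M1BP RNAi, against 3, 2 and 0 in WT. The count of 0 for skl in WT replicate 3 allows up to 3 counts by counting error alone. Neither gene received an adjusted p, because the mean count was too low for the filter of DESeq2, and their 95% intervals (-2.52 to 2.27 for grim and -4.51 to 4.38 for skl, on the log2 scale) show that a difference of several fold was not detectable at this depth. The count of grim is uncertain as well, since 541 of its 1699 exon bases are shared with lncRNA:CR45975 on the same strand and 749 with asRNA:CR45974 on the other. That antisense RNA had 11.7 normalised counts in M1BP RNAi replicate 2 and 0 in the other libraries.

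The span from hid to skl holds 17 genes, of which 15 had counts and 0 were called. Besides hid and rpr, 2 of them received an adjusted p, and both were counted mainly in a single library. CG5103 had 129 and 1.96 normalised counts in M1BP RNAi, against 0 to 3.32 in WT, and CG13700 had 97.2 and 5.89, against 0 to 4.43. Both were picked with their values in view, and the library in which they were high, M1BP RNAi replicate 2, is the one high in testis markers.

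Diap1 was the most abundant of the 10 genes in every library. It lies at 16038410 to 16051034 on 3L (minus strand) and had 11965 and 9363 normalised counts in M1BP RNAi, against 6177, 9034 and 8040 in WT. Both M1BP RNAi libraries were above WT, but replicate 3 exceeded WT replicate 2 by little. The log2 fold change was 0.46 (SE 0.215, 95% interval 0.04 to 0.88) with a DESeq2 adjusted p of 0.104, so the difference did not exceed the spread between libraries once adjusted over all genes. Leaving out M1BP RNAi replicate 2 brought the log2 fold change to 0.28, and leaving out replicate 3 to 0.64. With lncRNA:roX1 as a covariate it was 0.20 (DESeq2 adjusted p 0.643), the lowest value among the alternatives. Of its 3143 exon bases, 347 are shared with asRNA:CR45889 on the other strand, which had at most 4.76 normalised counts in any library.

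The apoptosome proteins Dark and Dronc lay on opposite sides of WT, neither of them called. Dark (2R, 17020027 to 17026703, plus strand) had 2176 and 1906 normalised counts in M1BP RNAi, against 1578, 1602 and 1464 in WT. The WT libraries were close together and both M1BP RNAi libraries were higher. The difference was 0.40 on the log2 scale (SE 0.120, adjusted p 0.00645 by DESeq2), or 1.32-fold, with the smallest p among the 10 genes. Over the alternatives tried, its adjusted p ranged from 0.00605 to 0.439. Of the 4883 exon bases of Dark, 2779 are shared with asRNA:CR44390, whose normalised counts were 14.6 and 23.6 in M1BP RNAi, against 4.26 to 21.4 in WT, so reads from the shared part are uncertain if counting ignored the strand.

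Dronc, the initiator caspase that Dark activates (3L, 9968479 to 9971002, plus strand), had 712 and 716 normalised counts in M1BP RNAi, against 1007, 1056 and 845 in WT. The M1BP RNAi libraries were nearly equal and both lay below WT. The log2 fold change was -0.44 (SE 0.160, DESeq2 adjusted p 0.0288), or 1.36-fold lower, and the adjusted p ranged from 0.00588 to 0.619 over the alternatives. Drice (3R, 29799658 to 29801584, plus strand), the effector caspase cleaved by Dronc, had 498 and 510 normalised counts in M1BP RNAi, against 568, 573 and 502 in WT. Its groups overlapped, and the log2 fold change was -0.12 (SE 0.146, adjusted p 0.596 by DESeq2) with a 95% interval of -0.41 to 0.17.

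**Figure D2:**
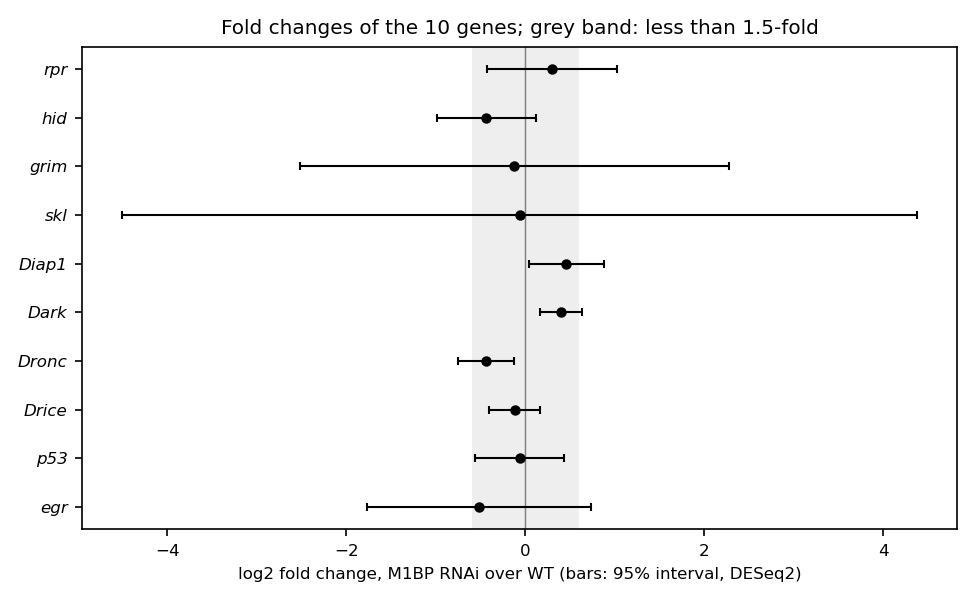
Log2 fold change of M1BP RNAi over WT (x axis) for the 10 genes (rows), with 95% intervals from the DESeq2 standard errors and a grey band for changes under 1.5-fold. The intervals of Dark, Diap1 and Dronc exclude 0, every point lies inside the band, and those of grim and skl span several fold.

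The p53 gene (3R, 23049657 to 23054082, minus strand) had 192 and 186 normalised counts in M1BP RNAi, against 165, 225 and 201 in WT. Both M1BP RNAi libraries fell inside the WT range, and the log2 fold change was -0.06 (SE 0.254, adjusted p 0.897 by DESeq2). Its 95% interval was -0.56 to 0.44. Although p53 shares 812 of its 2136 exon bases with asRNA:CR46089, that RNA had at most 3.32 normalised counts.

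The egr gene, which encodes the ligand Eiger (2R, 10078366 to 10084210, plus strand), was variable. It had 42.4 and 64.8 normalised counts in M1BP RNAi, against 121, 66.7 and 42.6 in WT. The WT libraries alone spanned nearly the whole range, and the log2 fold change was -0.52 (SE 0.637, DESeq2 adjusted p 0.599). Without WT replicate 1 it was -0.03. For 6 of the 10 genes (hid, Diap1, Dark, Dronc, Drice and p53) the 95% interval lay within 2-fold in either direction, and for rpr, grim, skl and egr it did not.

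Levels of different genes were compared per kilobase of exon. In WT the order was Diap1 (2466 normalised counts per kilobase), Dronc (481), Dark (317), Drice (284), hid (166), rpr (96.2), p53 (92.2), egr (35.4), grim (2.43) and skl (1.38). In M1BP RNAi the order was Diap1 (3393), Dark (418), Dronc (354), Drice (261), hid (123), rpr (118), p53 (88.4), egr (24.7), grim (2.23) and skl (1.33). Among neighbours, the M1BP RNAi libraries overlapped for hid and rpr, and the WT libraries for rpr and p53 and for grim and skl. The level of Dark was divided by all of its 4883 exon bases, 2779 of them shared with asRNA:CR44390 on the other strand. If counting ignored the strand, the level of Dark and its place against Dronc are uncertain. The levels of grim, p53 and Diap1 are limited in the same way, through the exon bases they share with other genes. The place of p53 against its neighbours is therefore uncertain too. With the lengths used here, Dronc and Dark exchanged places. Dark was above Dronc in 2 of 2 M1BP RNAi libraries and below it in 3 of 3 WT libraries.

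This exchange does not depend on the scaling between libraries, because both genes are read from the same library. Which gene is the higher does depend on the exon length used for Dark. The ratio of Dark to Dronc per kilobase was 1.26 and 1.10 in M1BP RNAi, against 0.647, 0.626 and 0.715 in WT. The mean was 1.18 ± 0.115 (SD, n = 2) in M1BP RNAi and 0.662 ± 0.0463 (SD, n = 3) in WT, with no overlap. The ratio of hid to rpr was 0.892 and 1.16 in M1BP RNAi, against 1.40, 1.97 and 1.93 in WT, also without overlap. Diap1 exceeded the 4 antagonists summed by 18.7-fold and 10.4-fold in M1BP RNAi, against 6.83-fold, 10.01-fold and 11.5-fold in WT, and here the groups overlapped. The ratio of Diap1 to Dronc was 10.8 and 8.39 in M1BP RNAi, against 3.93, 5.49 and 6.10 in WT, and that of Dronc to Drice was 1.37 and 1.34 in M1BP RNAi, against 1.70, 1.76 and 1.61 in WT. These 5 ratios were picked with the values in view, and the share of ratios without overlap among all genes was not computed. For the 4 ratios without overlap the two-sided exact permutation test gave p = 0.2 (0.25 adjusted over the 5 ratios), the smallest that 2 against 3 libraries allow, and for Diap1 over the antagonists it gave p = 0.4 (0.4 adjusted).

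**Figure D3:**
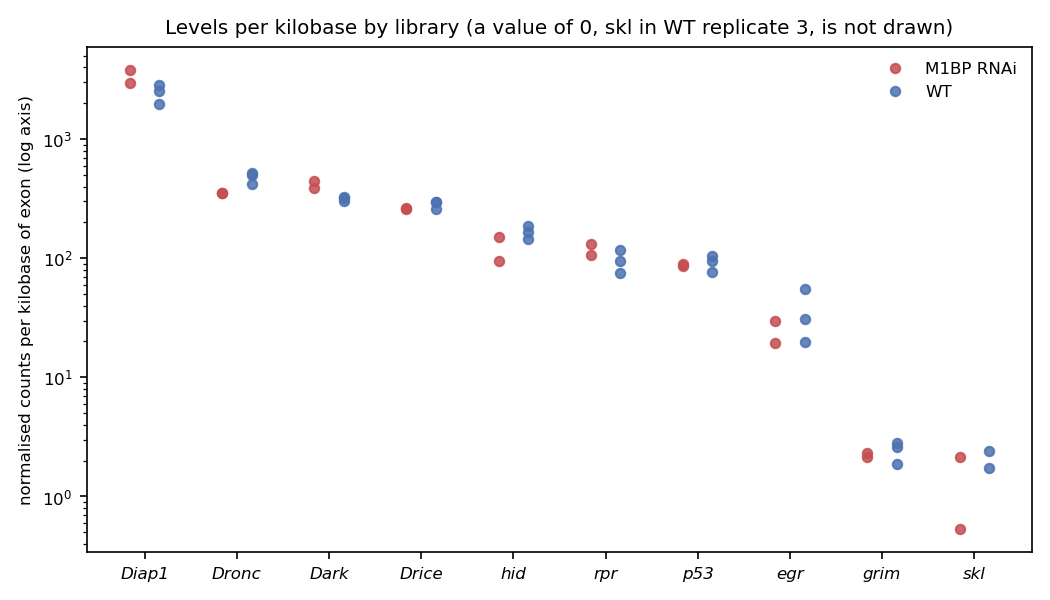
Normalised counts per kilobase of exon (log y axis) of the 10 genes, ordered by their WT mean, with a point for each library of M1BP RNAi (red) and WT (blue). Diap1 is the highest gene in each library, grim and skl are the lowest (skl is not drawn in WT replicate 3, where it was 0), and Dark lies above Dronc in M1BP RNAi and below it in WT.

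The genes whose pattern over the 5 libraries was most like that of Dark were sought among 7588 genes with a mean of at least 100 normalised counts, by the Euclidean distance of log2 values centred on the WT mean. The nearest were Ski6 (distance 0.0567), with 352 and 322 normalised counts in M1BP RNAi against 238 to 264 in WT, CG15536 (0.0758) and Zpr1 (0.0799). None of them was called (DESeq2 adjusted p 0.0683 to 0.107).

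The wider pathway was then described with 53 genes grouped by role, of which 51 were tested. They were chosen with earlier results of these data known. Their counts, in all and by group, are therefore description only and no test against the shares over all genes. In M1BP RNAi 3 of these 51 genes were called higher and 4 lower, 7 in all, against shares over all genes of 3.78% and 2.98%. At an adjusted p of 0.05 with no fold minimum 15 passed, 5 higher and 10 lower. Over all genes tested 24.4% passed, 14.7% higher and 9.72% lower. The median log2 fold change was -0.10. By edgeR 0 were called, the adjusted p of these 7 genes being 0.00450 to 0.0280 in that test, and the number with an unadjusted p under 0.05 was 19 by edgeR and 20 by DESeq2 (31.1% and 35.7% of all genes). Without M1BP RNAi replicate 2 the number called by DESeq2 was 4. The called genes lay in only 2 of the 6 groups, the mitochondrial and adaptor proteins of the apoptosome group and the DNA damage group.

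**Figure D4:**
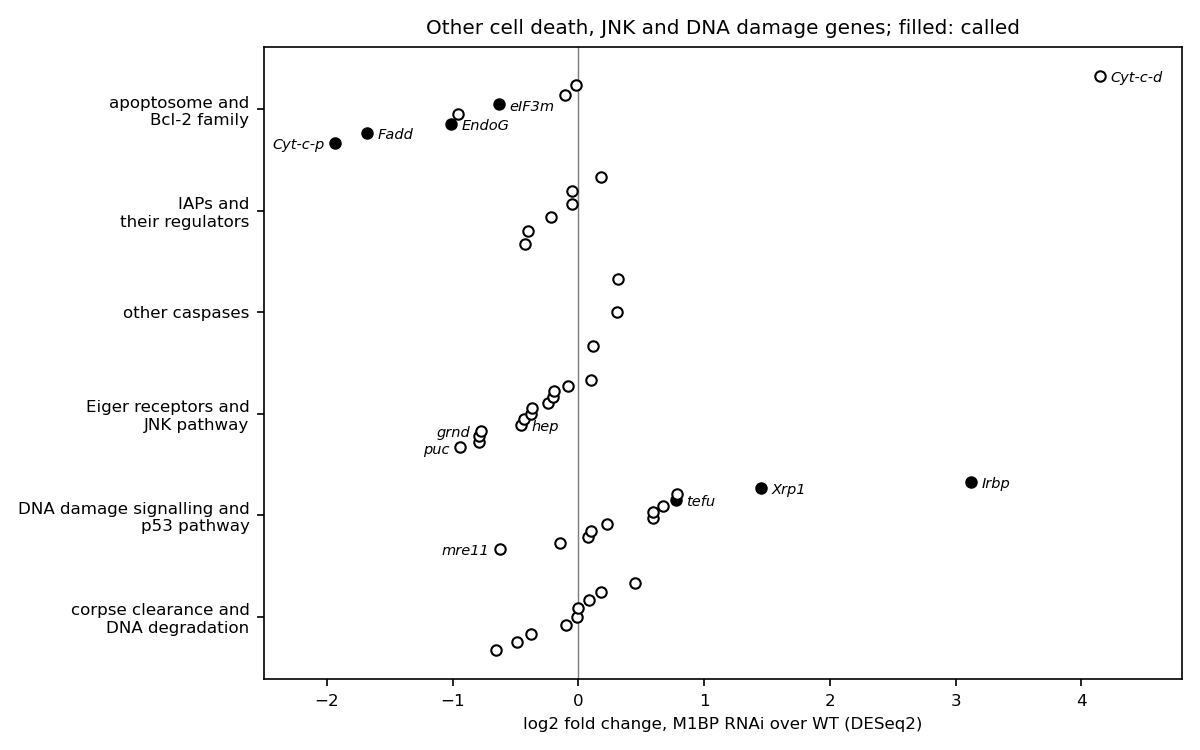
Log2 fold change of M1BP RNAi over WT (x axis) for the 51 tested pathway genes, stacked by group, with called genes filled. In the Eiger and JNK group all but bsk lie left of 0 and none is called, and the 3 called genes of the DNA damage group lie right of 0.

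In the apoptosome and Bcl-2 group, 4 of 8 genes were called and all 4 were lower, against 2.98% called lower over all genes. The Bcl-2 relatives Debcl and Buffy were not among the 4. Cyt-c-p, the somatic cytochrome c that carries electrons in the respiratory chain, fell most in this group. It had 2022 and 2039 normalised counts in M1BP RNAi, against 7823, 6298 and 9209 in WT, which was 3.83-fold lower (-1.94 on the log2 scale, SE 0.191, adjusted p 3.67e-22 by DESeq2). EndoG, a nuclease of the mitochondrial intermembrane space, had 3059 and 2972 against 6058, 5478 and 6716 (log2 fold change -1.01, SE 0.125, DESeq2 adjusted p 3.63e-14). In both genes the M1BP RNAi libraries agreed closely and lay far below WT. EndoG shares 87 exon bases with CCT5 on the other strand, whose mean was 18038 in M1BP RNAi and 12228 in WT.

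Fadd, the death domain adaptor that recruits the caspase Dredd in immune signalling, had 47.5 and 63.8 normalised counts in M1BP RNAi, against 204, 181 and 148 in WT (log2 fold change -1.68, SE 0.337, DESeq2 adjusted p 1.24e-05). The whole of Fadd lies inside the span of pit on the same strand with no shared exon base, and pit rose (2276 and 2090 in M1BP RNAi, against 1366, 1367 and 1175 in WT). The fourth gene was eIF3m, also named Tango7, a translation initiation subunit that also acts on Dronc in the apoptosome. It had 4356 and 3862 against 6616, 5763 and 6742 (log2 fold change -0.63, SE 0.125, DESeq2 adjusted p 8.40e-06). Cyt-c-p and EndoG were called without any one of the libraries, while Fadd lost its call without WT replicate 1, WT replicate 2 or M1BP RNAi replicate 2 and eIF3m without WT replicate 1 or either M1BP RNAi replicate, the adjusted p then being at most 0.0190 for Fadd and 0.0181 for eIF3m. With lncRNA:roX1 as a covariate neither was called (DESeq2 adjusted p 0.0840 for Fadd and 0.0286 for eIF3m). Cyt-c-d, the cytochrome c needed for caspase activation in spermatids, was not called. It had 279 and 18.7 normalised counts in M1BP RNAi, against 12.2, 1.19 and 11.7 in WT (DESeq2 adjusted p 0.0121), and was high in the library high in testis markers. The Bcl-2 relatives Debcl and Buffy and the oxidoreductase AIF overlapped between the groups.

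In the DNA damage and p53 group, 3 of 12 genes were called and all 3 were higher (3.78% of all genes were called higher), although the libraries of p53 itself overlapped. The median log2 fold change of the group was 0.60, and 6 of 12 genes lay above every WT library, as did 27.1% of all genes tested. Xrp1, a bZIP transcription factor that p53 induces after irradiation, had 50821 and 55767 normalised counts in M1BP RNAi, against 20877, 16746 and 20723 in WT. The libraries of the groups were far apart, and the rise was 2.74-fold (log2 fold change 1.45, SE 0.141, DESeq2 adjusted p 8.45e-23). Irbp, the fly Ku70 of non-homologous end joining, had 302 and 277 against 44.3, 41.7 and 13.8 (log2 fold change 3.13, SE 0.568, DESeq2 adjusted p 9.39e-07). The kinase gene tefu, the fly ATM, had 523 and 650 against 319, 338 and 369 (log2 fold change 0.78, SE 0.196, DESeq2 adjusted p 8.91e-04).

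Xrp1 and Irbp were called without any one of the libraries, and with lncRNA:roX1 as a covariate the log2 fold change of Irbp was 3.33 with an adjusted p of 0.00171 by DESeq2, above the threshold of 0.001. The call of tefu was lost whichever library was left out (DESeq2 adjusted p 0.00962 to 0.108). Its partner nbs, of the Mre11 complex, had a log2 fold change of 0.59 (DESeq2 adjusted p 0.00438) and was not called. Of the other genes known to be induced through p53, Corp, which feeds back on p53, overlapped between the groups (64.3 and 71.7 in M1BP RNAi, against 43.2, 83.3 and 47.9 in WT), as did rpr above. Ku80, the partner of Irbp, had 218 and 204 against 158, 140 and 69.2 (log2 fold change 0.79, DESeq2 adjusted p 0.206), and RnrL, the large subunit of ribonucleotide reductase, had 449 and 524 against 242, 395 and 277 (0.67, adjusted p 0.0833). Both lay above every WT library and were not called. The gene mre11 was unequal within WT, at 191 and 259 in M1BP RNAi, against 65.3, 390 and 588 in WT.

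**Figure D5:**
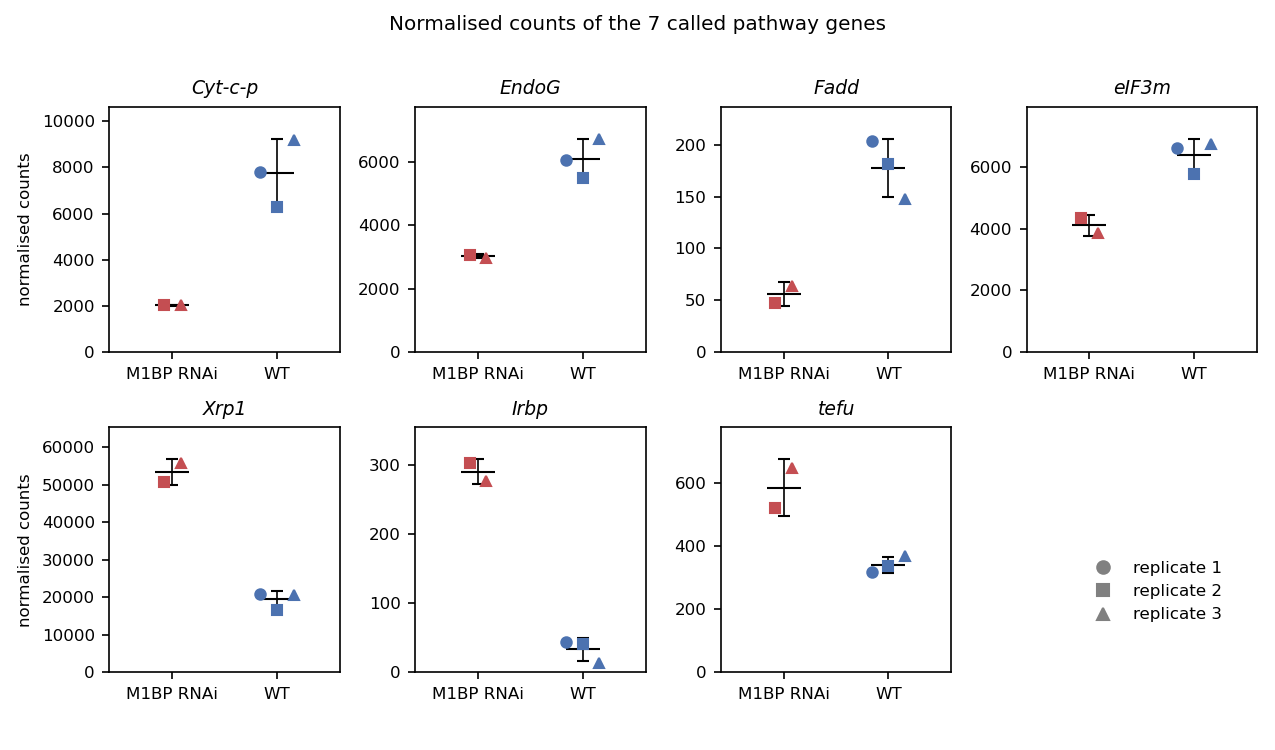
Normalised counts (y axis, each panel from 0) of the 7 called pathway genes in each library of M1BP RNAi (red, n = 2) and WT (blue, n = 3), with black bars for the mean ± SD. Cyt-c-p, EndoG, Fadd and eIF3m lie below every WT library, and Xrp1, Irbp and tefu lie above.

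In the Eiger receptor and JNK group, 0 of 13 genes were called by DESeq2, against 6.75% of all genes tested. An unadjusted p under 0.05 was found for 7 of the 13, against 35.7% of all genes. An adjusted p of at most 0.05 was found for 5, all 5 lower in M1BP RNAi (9.72% of all genes passed as lower). Without M1BP RNAi replicate 2 none of these 5 passed 0.05 (DESeq2 adjusted p 0.124 to 0.442), with the lncRNA:roX1 covariate only puc did, and by edgeR only hep did. The median log2 fold change was -0.37, with 12 of 13 genes negative and 9 of 13 below every WT library, against 48.4% and 21.9% of all genes tested. The kinase gene hep, which activates JNK, had the smallest p. It had 1071 and 1014 normalised counts in M1BP RNAi, against 1376, 1425 and 1491 in WT, and missed the fold minimum only (1.37-fold, log2 fold change -0.46, SE 0.103, DESeq2 adjusted p 1.35e-04). The Eiger receptor gene grnd had 285 and 383 against 551, 637 and 522 (log2 fold change -0.77, DESeq2 adjusted p 0.00523). It shares 275 exon bases with kon on the other strand, which was called lower (488 and 671 in M1BP RNAi, against 1051, 1589 and 1362 in WT), so its count is uncertain if counting ignored the strand. The phosphatase gene puc, a target and inhibitor of JNK signalling, had 779 and 1020 against 1272, 1746 and 2158 (log2 fold change -0.94, DESeq2 adjusted p 0.00693). Traf4 and kay were the other genes under 0.05. The second receptor, wgn, had 3726 and 4933 against 6585, 4972 and 5984 (DESeq2 adjusted p 0.0933), and JNK itself, bsk, was the only positive gene of the group (log2 fold change 0.10). Apart from hep, the genes of the Eiger and JNK group named here were picked with their values in view.

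The remaining groups held no called gene, and 6.75% of all genes tested were called. Of 6 inhibitor genes and regulators, Diap2 had the smallest p, at 4938 and 4671 normalised counts in M1BP RNAi, against 4479, 4022 and 4239 in WT (log2 fold change 0.18, DESeq2 adjusted p 0.142). In this group 0 of 6 genes had an unadjusted p under 0.05 by DESeq2, against 35.7% of all genes tested. Of the other caspases, Dcp-1, the effector caspase closest to Drice, had 401 and 347 against 296, 317 and 295 (log2 fold change 0.31, DESeq2 adjusted p 0.199), while Decay and Damm had too few counts for an adjusted p. Of 9 genes for the clearance of corpses and DNA, ced-6, which encodes an engulfment adaptor of Draper, had the smallest p, at 919 and 1106 against 1591, 1790 and 1397 (log2 fold change -0.65, SE 0.180, DESeq2 adjusted p 0.00257). The engulfment receptor gene drpr overlapped between the groups, at 3279 and 3402 in M1BP RNAi, against 3330, 3322 and 3391 in WT (log2 fold change -0.0036, SE 0.0676).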

How the data were processed

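Flight muscle RNA from 5 pools of pupae was sequenced after a stranded library preparation (input 100 ng, 13 PCR cycles). The authors deposited raw read counts per gene over exons on dm6, made from uniquely aligned reads; their processing notes name bcl2fastq 2.17.1.14, Subread 2.0.3 and featureCounts, and whether counting used the strand was not given in the sources used here. That table also gave exon lengths. Another deposited file with the authors' own means, fold changes and p-values served only to pair symbols with identifiers. Groups were taken from the sample titles, and 0 count columns were left unmapped.

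All 17494 genes were fitted in R 4.3.3 with DESeq2 1.42.0 (Wald test, default settings, no covariate, Benjamini-Hochberg adjustment over 11282 genes), and the members' results were read from that fit. Intervals are 1.96 SE. edgeR 4.0.16 (quasi-likelihood), TMM factors, a filter of 10 counts in 2 libraries, a replicate block, lncRNA:roX1 as covariate and each library left out were alternatives. The DESeq2 fit was also run on simulated data, with an outcome that is not reported here. The members and lists were chosen with earlier results of these data known. Text names all members, called pathway genes and the smallest p of each pathway group, and other genes were picked with their values in view. Positions come from the count table, and 17358 identifiers occurred in the Ensembl annotation, 17230 with the same span. No sequences are shown.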

Additional observations from a re-analysis of the deposited data

How the results depend on the processing

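No alternative called any of the 10 genes at the main thresholds, and 2 passed at an adjusted p of 0.05 with no fold minimum. Among all genes 762 were called, against 8 in edgeR, 302 with lncRNA:roX1 as a covariate, 319 to 937 when a library was left out and 2750 at an adjusted p of 0.05. Of the pathway genes 7 were called, against 0 in edgeR, 3 with the lncRNA:roX1 covariate, 4 to 7 when a library was left out and 15 at an adjusted p of 0.05. The log2 fold change of M1BP stayed between -0.68 and -0.52 when a library was left out, but its call was lost in each of these fits, in edgeR (-0.60) and with the covariate (-0.60). The cause was not tested. The replicate numbers are shared by 2 libraries of each group, and deviations from the group mean correlated at -0.30 and -0.08 between same-numbered libraries. With 2 M1BP RNAi libraries the deviations mirror each other, so these values cannot show whether same-numbered libraries form pairs. With the replicate block 315 of all genes were called (119 higher, 196 lower), none of the 10 genes had an unadjusted p under 0.05, Fadd (DESeq2 adjusted p 0.237), eIF3m (0.0249) and tefu (0.394) were not called while puc (9.62e-04) and kay (5.50e-05) were, M1BP was not (-0.60), and the log2 fold change of skl was 1.64. The direction of skl also changed with the covariate (0.53) and when a library was left out (-1.37 to 0.65), that of egr with the covariate (0.10) and that of p53 when a library was left out (-0.18 to 0.033). For grim and skl, with at most 5 counts in a library, the counts were too few to detect a difference of several fold.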
